A study of Homo sapiens with 6 samples.

Results

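The leukocyte immunoglobulin-like receptors (LILRs) and LAIR1 form a family of immunoglobulin-domain receptors of myeloid cells and some lymphocytes, and 9 of its genes were followed here: the inhibitory receptors LILRB1, LILRB2, LILRB3, LILRB4 and LAIR1 and the activating receptors LILRA1, LILRA2, LILRA5 and LILRA6. These 9 genes were taken by symbol from a table of raw counts for 30017 gene symbols, and all 9 were among the 14758 genes tested. The RNA came from BLaER1-CTCF-mAID cells, a single subclone of a human B cell leukemia line in which exogenous CEBPA can be activated to convert the cells into induced macrophages (iMacs), and in which the chromatin protein CTCF carries a degron, through which the auxin IAA (indole-3-acetic acid) triggers its breakdown. There were 2 biological replicates each of cells before induction (0 h), cells 96 h after the addition of 17β-estradiol, IL-3 and CSF-1 (96 h control) and cells at 96 h that received IAA together with these factors (96 h CTCF-depleted). All 3 groups carry the degron, and no IAA-treated line without it is among these libraries, so that IAA itself and the loss of CTCF cannot be told apart.

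LILRs read the state of neighbouring cells and of the extracellular matrix. The inhibitory LILRBs and LAIR1 carry tyrosine motifs (ITIMs) in a long cytoplasmic tail that recruit the phosphatases SHP-1 and SHP-2 and dampen activation, whereas the activating LILRAs have a short tail and signal through the adaptor FcRγ, which carries an activating motif (ITAM). MHC class I molecules are ligands of LILRB1 and LILRB2, and collagens are ligands of LAIR1. In blood, the family is best known from monocytes, macrophages and dendritic cells.

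At 96 h the 9 members followed here were on a far higher level than at 0 h, with the exception of LILRB4. LAIR1 was the most abundant member, LILRA5 and LILRB3 went from at most 1 count per library to between 266 and 281 counts in control iMacs, and LILRB4, the inhibitory receptor also known as ILT3, was about as high in the B cell state as in control iMacs. With CTCF depletion the induction took place as well. LILRA5, an activating receptor, then reached 1.91 times its control level and was the only member past both thresholds, while the activating receptors as a group made up a larger share of the family's transcripts.

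The 9 genes lie in the leukocyte receptor complex on chromosome 19 (hg38, GENCODE release 44). LILRB3 (54216278 to 54223506), LILRA6 (54236592 to 54242791), LILRB2 (54273812 to 54281184), LILRA5 (54307070 to 54313166) and LAIR1 (54351384 to 54370558) follow each other on the minus strand. LILRA2 (54572920 to 54590287), LILRA1 (54593582 to 54602381), LILRB1 (54617158 to 54638022) and LILRB4 (54643889 to 54670359) form a group on the plus strand. Both groups hold activating and inhibitory genes. The family members LILRB5 and LILRA4 lie within the former group, and LAIR2, which encodes a secreted relative of LAIR1, lies between the groups.

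The sequence before the start site relates some of these genes across the groups. The 96 bases from position -170 to position -75 relative to a RefSeq start site (GRCh38.p14) are printed for the 5 members in which such a stretch held 1 of the motifs searched, and both the genes and the stretches were chosen after the sequences had been seen. Capitals mark GGGGAAG in LILRB2, LILRB1 and LILRA1, the C/EBP pattern TTGCNNAA in LILRA5 and the PU.1 pattern GAGGAAG, on the opposite strand, in LAIR1. The stretches are chr19:54281185-54281280 (minus strand) for LILRB2, chr19:54630314-54630409 (plus strand) for LILRB1, chr19:54593462-54593557 (plus strand) for LILRA1, chr19:54313241-54313336 (minus strand) for LILRA5 and chr19:54370633-54370728 (minus strand) for LAIR1. None of them overlaps an annotated exon of its gene, and the one of LILRB1 lies in an intron of the longer gene model.
LILRB2: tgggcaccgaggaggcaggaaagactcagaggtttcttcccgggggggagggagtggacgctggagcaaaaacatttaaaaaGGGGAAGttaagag
LILRB1: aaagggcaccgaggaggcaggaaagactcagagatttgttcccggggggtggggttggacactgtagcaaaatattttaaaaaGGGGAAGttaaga
LILRA1: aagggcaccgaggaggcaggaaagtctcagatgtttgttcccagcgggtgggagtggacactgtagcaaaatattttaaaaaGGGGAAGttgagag
LILRA5: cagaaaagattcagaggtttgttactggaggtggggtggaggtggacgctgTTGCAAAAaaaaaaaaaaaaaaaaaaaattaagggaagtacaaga
LAIR1: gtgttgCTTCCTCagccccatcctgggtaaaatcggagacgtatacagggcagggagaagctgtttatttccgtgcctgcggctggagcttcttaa

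The inhibitory LILRB2 and LILRB1 and the activating LILRA1 thus share this stretch, although LILRB2 lies in the minus-strand group. Across the full windows, from 250 bases before to 50 bases after the start, the longest run without a mismatch was 86 bases between LILRB2 and LILRB1 and 68 bases between LILRA1 and LILRB1. LILRA5 shared 34 bases with LILRA1. RefSeq windows were at hand for 8 of the 9 members, with LILRA6 not among them. Motifs were searched on both strands. Of all 35116 windows, 10.5% held TTGCNNAA, 13.6% GAGGAAG and 13.0% GGGGAAG, the last of which was chosen after the sequences had been seen. These matches are letters in a window and not measured binding sites.

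Total counts were 9273470 to 12718780 per library, and the replicates of each condition differed by more than sampling noise. CTCF itself had 230.5 and 213.7 CPM (read counts relative to the TMM-scaled library size) at 0 h, 180.8 and 173.6 in control and 190.9 and 188.9 in CTCF-depleted libraries. A degron acts on the protein, so that these transcript levels do not check the depletion. B cell markers fell in 10 of 10 genes by 96 h, with a summed level of 3612 to 3646 CPM at 0 h, 437.3 to 437.4 CPM in control and 373.3 to 385.5 CPM in CTCF-depleted libraries. Macrophage markers rose in 10 of 10 genes, from 36.1 to 39.5 CPM at 0 h to 6208 to 6430 CPM in control and 5463 to 5544 CPM in CTCF-depleted libraries. Of the T cell markers, CD3D, CD3G and CD5 were at 0 in every library, while CD2, the 1 tested, rose from 0 counts at 0 h to 40 and 38 in control (edgeR adjusted p = 1.51e-12). CD2 passed the filter on low counts only through the 96 h libraries, so that being tested already required this rise. In these bulk libraries, fewer cells that express a gene and less RNA per cell cannot be told apart.

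The first comparison, 96 h control with 0 h, addressed how the family changed during conversion. A gene was counted as higher or lower where it passed 2 thresholds, 0.01 for the adjusted p and 0.6 for the size of the log2 fold change, in edgeR's quasi-likelihood test with Benjamini-Hochberg adjustment over all genes tested. Of the 9 members, 8 were higher and 0 were lower, where 25.4% of all genes tested were higher and 22.9% lower. LILRA1, LILRA5, LILRA6 and LILRB3 had fewer than 10 counts in either 0 h library and passed the filter only through the 96 h libraries. Being tested thus already required these genes to be higher at 96 h. With at least 10 counts in every library, 4 members were higher and 0 lower, as these genes were no longer tested. DESeq2 gave the same counts, and at an unadjusted p below 0.05, 8 were higher and 0 lower, next to 38.7% and 37.9% of all genes tested. The median log2 fold change of the 9 members was 3.83, next to 0.02 over all genes tested.

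Among the inhibitory members, LAIR1, a collagen receptor, had 27.4 and 25.1 CPM at 0 h and 370.5 CPM in both control libraries. The groups lie far apart, and the log2 fold change was 3.83 (SE 0.06, edgeR adjusted p = 4.13e-50). LILRB2, also known as ILT4, had 10.8 and 12.0 CPM at 0 h and 84.1 and 88.1 CPM in control, a log2 fold change of 2.90 (SE 0.10, edgeR adjusted p = 3.94e-34). LILRB1, or ILT2, had 2.17 and 3.08 CPM at 0 h and 33.0 and 29.8 CPM in control. It was 11.7-fold higher at 96 h (log2 fold change 3.54, SE 0.16, edgeR adjusted p = 2.16e-28), and the lowest control library was well above both 0 h libraries.

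LILRB3 was nearly silent in the B cell state. It had 0 and 1 counts at 0 h and 266 and 268 counts in control, a ratio of 556 with a counting interval (95%, exact) of 99.3 to 21989, which covers counting error only (edgeR adjusted p = 6.24e-30). LILRB4 behaved differently from the other inhibitory members. Its level was 38.2 and 40.6 CPM at 0 h and 39.4 and 38.9 CPM in control, so that both control libraries lay between those at 0 h. The log2 fold change was -0.01 (SE 0.08, edgeR adjusted p = 0.897).

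The 4 activating members all rose. LILRA2 had the highest level at 0 h among them, with 18.2 and 21.3 CPM, and reached 84.6 and 81.7 CPM in control (log2 fold change 2.06, SE 0.09, edgeR adjusted p = 2.10e-29). LILRA6, a near copy of LILRB3 in its extracellular part, had 4 and 9 counts at 0 h and 270 and 268 in control (log2 fold change 5.40, SE 0.23, edgeR adjusted p = 2.76e-29). LILRA5 had 0 counts in both 0 h libraries and 281 and 275 in control, at least 192.9-fold higher against a floor of 3 counts over the 0 h group (edgeR adjusted p = 6.69e-32). LILRA1 was low throughout, with 2 and 0 counts at 0 h and 40 and 26 in control, a ratio of 34.3 with a counting interval of 9.14 to 289 (edgeR adjusted p = 7.91e-10). The sizes of LILRA1 and LILRB3 rest on which 0 h library is used: the fitted log2 fold change was 8.08 without 0 h replicate 1 and 3.74 without replicate 2 for LILRA1, and 8.13 and 10.99 for LILRB3, and both genes passed the thresholds in each case. All 8 members that rose had both control libraries above both 0 h libraries, as had 43.9% of all genes tested.

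**Figure D1:**
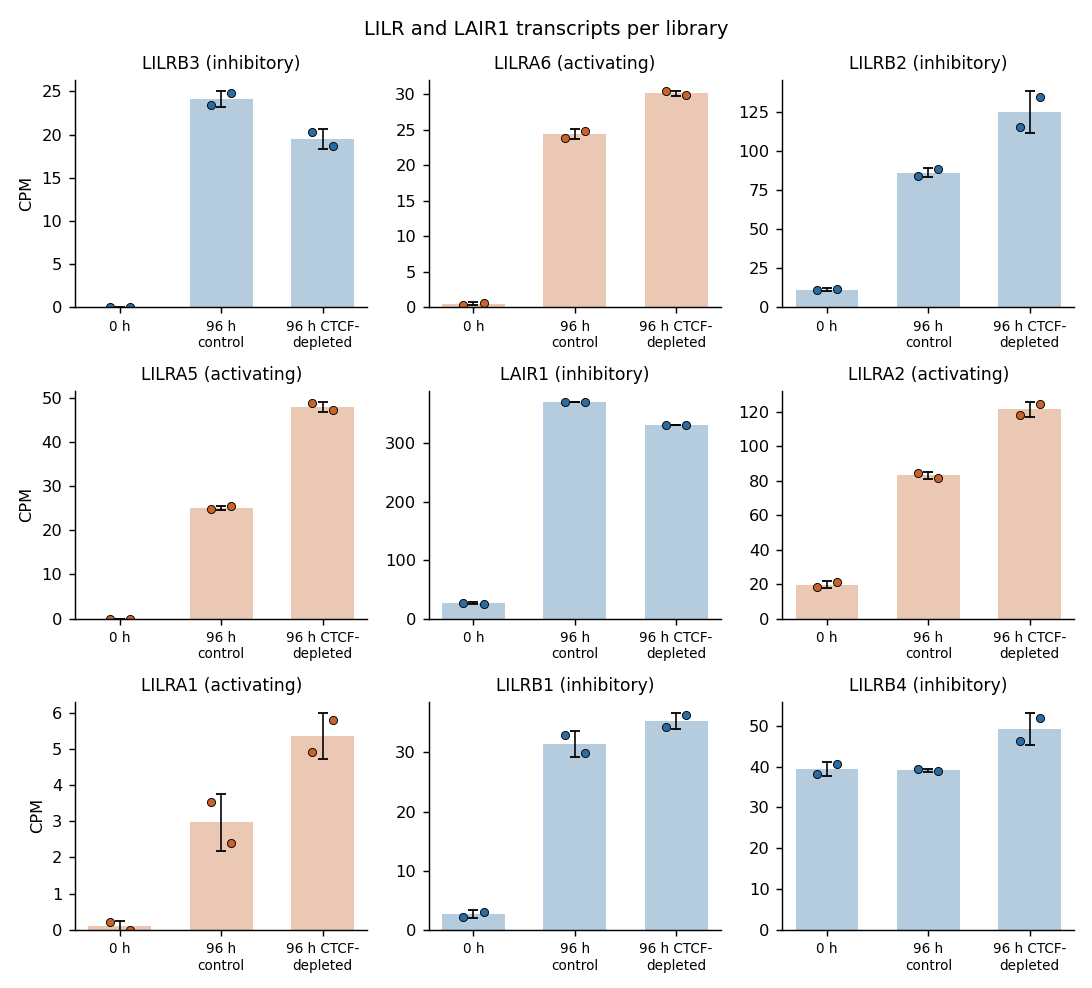
Level of the 9 genes in chromosomal order, in TMM-scaled CPM, with 1 point per library, bars for the mean and error bars for the SD of 2 libraries. Each panel has its own axis from 0. LILRB4 is as high at 0 h as in 96 h control, while the other 8 genes are lower at 0 h than in 96 h control. In 7 of the 9 genes, LILRA5 among them, both CTCF-depleted libraries lie above both control libraries, as in 30.1% of all genes tested.

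Levels of different genes can be set side by side only per length, so CPM were divided by the length of all annotated exons of a gene in kilobases (CPM per kb). At 0 h, LILRB4 led with 6.22 ± 0.269 (SD, n = 2) CPM per kb, followed by LILRA2 with 3.69 ± 0.416, LAIR1 with 3.25 ± 0.209 and LILRB2 with 2.99 ± 0.217. The libraries of LILRA2 and LAIR1 overlap, as do those of LAIR1 and LILRB2. The other 5 members were below 1 CPM per kb.

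In control iMacs the order was led by LAIR1 with 45.9 ± 0.00166 CPM per kb, LILRB2 with 22.5 ± 0.733, LILRA2 with 15.5 ± 0.391 and LILRA5 with 14.1 ± 0.264. LILRA6 (8.95), LILRB3 (6.46), LILRB4 (6.18), LILRB1 (5.71) and LILRA1 (0.766 CPM per kb) followed. No 2 neighbours in this order had overlapping libraries. When the longest transcript was taken as the length instead, LILRB4, LILRB1 and LILRB3 followed each other with 9.78, 9.52 and 8.48 CPM per kb. LILRB4 thus moved from the head of the family to its lower part, on the same CPM. In CTCF-depleted cells LAIR1 (41.0 ± 0.0188 CPM per kb) and LILRB2 (32.7 ± 3.54) still led, and LILRA5 (26.8 ± 0.645) was then above LILRA2 (22.7 ± 0.833).

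The second comparison, 96 h CTCF-depleted with 96 h control, addressed what CTCF depletion during conversion did to the family. Of the 9 members, 1 was higher (LILRA5) and 0 were lower by both thresholds in edgeR, where 5.41% of all genes tested were higher and 7.03% lower. DESeq2 gave the same counts. At an unadjusted p below 0.05, 6 were higher and 2 lower, where 19.4% of all genes tested were higher and 26.2% lower. The same 6 and 2 members had an adjusted p below 0.05 in edgeR, as had 16.1% and 22.6% of all genes. DESeq2 did not give this for LILRB3 and LILRA1 (DESeq2 adjusted p = 0.330 and 0.193). The median log2 fold change of the members was 0.33, next to -0.03 over all genes tested. Both CTCF-depleted libraries lay above both control libraries in 7 members, as in 30.1% of all genes tested, and below them in LILRB3 and LAIR1, as in 37.8% of all genes. Of the 10 macrophage markers, 1 was higher and 3 lower with depletion, and of the 10 B cell markers 0 were higher and 3 lower, and the part of these shifts in the values of the LILR genes was not tested.

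LILRA5 had 24.8 and 25.5 CPM in control and 48.8 and 47.2 CPM in CTCF-depleted libraries. The groups are separated by far more than the spread within each, and the log2 fold change was 0.93 (SE 0.10, edgeR adjusted p = 4.30e-12). Little is known about its ligand, and cross-linking of this receptor on monocytes is known to induce cytokines. LILRA2 had 84.6 and 81.7 CPM in control and 118.3 and 124.6 CPM in CTCF-depleted libraries. Its log2 fold change of 0.55 (SE 0.07, edgeR adjusted p = 3.56e-09) passed the threshold for p but not the one for the fold change.

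LILRA1, at 3.53 and 2.41 CPM in control and 4.91 and 5.80 CPM with depletion, had a log2 fold change of 0.84 (SE 0.28) that missed the threshold for p (edgeR adjusted p = 0.0126). LILRA6 had 23.8 and 24.8 CPM in control and 30.4 and 29.8 CPM with depletion, a log2 fold change of 0.31 (SE 0.11, edgeR adjusted p = 0.0204). In each of the 4 activating genes both depleted libraries were above both controls, but only LILRA5 passed both thresholds. The rise of LILRA6 was not seen when its counts were summed with those of LILRB3.

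The inhibitory members went in different directions. LILRB2 had 84.1 and 88.1 CPM in control and 115.3 and 134.4 CPM with depletion, and its log2 fold change of 0.54 (SE 0.07, edgeR adjusted p = 1.06e-08) fell short of the fold threshold. Its depleted libraries spread more widely than its controls. Without the lower of them, replicate 1, the log2 fold change was 0.68 and the gene passed both thresholds, and it also did so without control replicate 2 (0.60). LILRA2 likewise passed both without control replicate 1 (0.61) or without depleted replicate 1 (0.62), and LILRA1 passed without either 0 h library (0.88 for both).

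LILRB4 had 39.4 and 38.9 CPM in control and 46.4 and 52.0 CPM with depletion, a log2 fold change of 0.33 (SE 0.08, edgeR adjusted p = 8.48e-04), below the fold threshold. LILRB1 had 33.0 and 29.8 CPM in control and 34.4 and 36.3 CPM with depletion (log2 fold change 0.17, SE 0.10, edgeR adjusted p = 0.182). LAIR1, at 370.5 CPM in both control libraries and 331.2 and 331.0 CPM with depletion, had a log2 fold change of -0.16 (SE 0.05, edgeR adjusted p = 0.00325), and LILRB3, at 23.5 and 24.8 CPM in control and 20.3 and 18.7 CPM with depletion, one of -0.31 (SE 0.12, edgeR adjusted p = 0.0420). Neither reached the fold threshold.

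**Figure D2:**
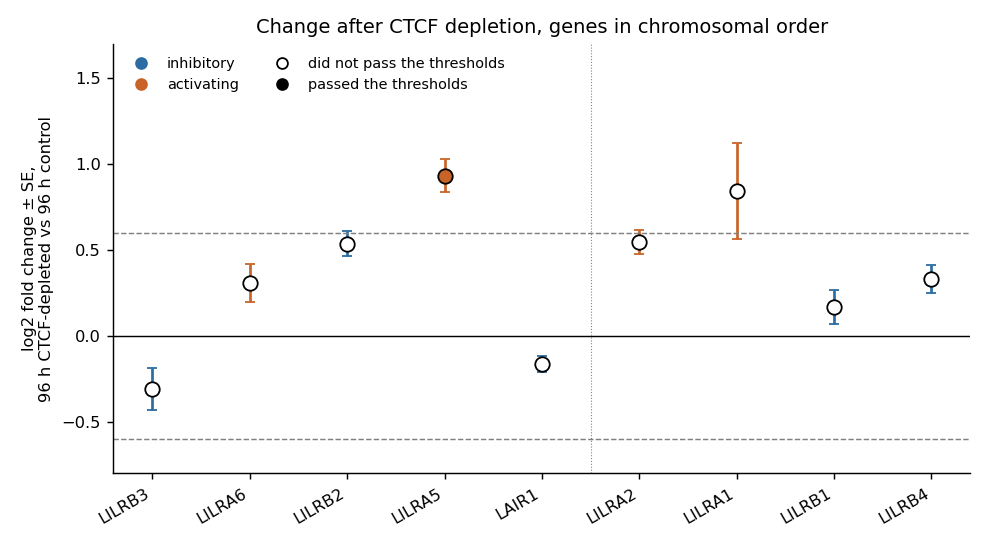
Log2 fold change of 96 h CTCF-depleted against 96 h control libraries for the 9 genes in chromosomal order, with the standard error. Dashed lines mark a log2 fold change of 0.6 in either direction, the dotted line separates the minus-strand from the plus-strand genes, and filled symbols passed both thresholds. LILRA5 at 0.93 is the only filled symbol, and LILRB3 at -0.31 and LAIR1 at -0.16 are the only values below 0.

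The values of LILRB3 and LILRA6 are the least certain, as these genes share sequence. Of the 100-base windows of LILRB3 transcripts, 6.22% also occur in LILRA6, and of those of LILRA6, 8.74% also occur in LILRB3. Counted over all other genes of the family, 12.0% of the LILRB3 windows are shared. How reads that match both were counted is not given in the sources used here. LILRA6 took 50.4% and 50.0% of the counts of the pair in control libraries and 60.0% and 61.5% in CTCF-depleted libraries, while the summed counts were 536 and 536 in control and 547 and 527 with depletion. Summed, the pair had a log2 fold change of 0.03 (edgeR adjusted p = 0.783), so that neither the fall of LILRB3 nor the rise of LILRA6 was seen for the pair. The sum does not cover sequence shared outside the pair. LILRB2 shares 3.71% of its windows with LILRB1, LAIR1 2.03% with LAIR2, and LILRB1 3.51% with other genes of the family. LILRA1, LILRA2, LILRA5 and LILRB4 share none with another gene of the family.

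Added up per length, both the activating and the inhibitory members were higher at 96 h, and their proportion differed between the groups. The 5 inhibitory genes summed to 12.7 and 13.2 CPM per kb at 0 h, 86.4 and 87.2 in control and 90.2 and 96.0 in CTCF-depleted libraries. The 4 activating genes summed to 3.60 and 4.23 CPM per kb at 0 h, 39.4 and 39.3 in control and 61.9 and 62.2 in CTCF-depleted libraries. Activating members thus made up 22.1% and 24.2% of the family's summed level at 0 h, 31.3% and 31.1% in control and 40.7% and 39.3% with depletion. The 3 groups do not overlap in this share, which takes in LILRA6 and so depends on how reads were split between LILRA6 and LILRB3. From CPM not divided by length, the activating share was 19.3% and 21.4% at 0 h, 19.9% and 19.6% in control and 27.0% and 26.6% with depletion, so that 0 h and control overlap on that scale and the depleted libraries lie above both. With 2 libraries against 2, an exact two-sided permutation test cannot give a p below 0.333.

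**Figure D3:**
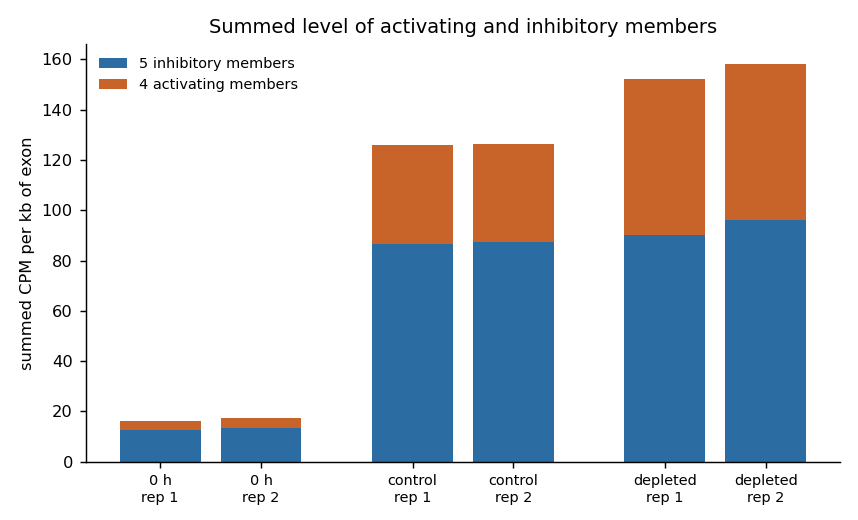
Summed CPM per kb of exon of the 5 inhibitory (blue) and 4 activating (orange) members in each library. The orange part goes from 3.60 and 4.23 at 0 h to 39.4 and 39.3 in control and to 61.9 and 62.2 in CTCF-depleted libraries, while the blue part lies between 86.4 and 96.0 in all 4 libraries at 96 h.

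CTCF-depleted libraries were also compared with 0 h, which shares its libraries with both comparisons above. Of the 9 members, 8 were higher and 0 lower (27.2% and 25.2% of all genes tested). Here too, LILRA1, LILRA5, LILRA6 and LILRB3 had passed the filter only through the 96 h libraries. Both depleted libraries lay above both 0 h libraries in all 9, as in 44.6% of all genes tested, and all 9 had an adjusted p below 0.01 in edgeR, as had 71.0% of all genes in either direction. The median log2 fold change was 3.71. LILRB4 had a log2 fold change of 0.32 (SE 0.08, edgeR adjusted p = 4.36e-04) and did not pass the fold threshold. LILRA5 was at least 368.3-fold higher than the floor at 0 h. LILRB3 reached a ratio of 449 (counting interval 80.1 to 17766) and LILRA1 one of 61.7 (16.7 to 515), with fitted log2 fold changes of 7.85 and 8.96 without 0 h replicate 1 and of 10.72 and 4.61 without 0 h replicate 2. The log2 fold change was 3.66 for LAIR1, 3.44 for LILRB2, 3.71 for LILRB1, 2.61 for LILRA2 and 5.71 for LILRA6.

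Of the remaining genes of the family, LAIR2 was tested. It had 1 and 2 counts at 0 h, 38 and 28 in control and 27 and 34 with depletion, a log2 fold change of 4.40 in conversion (SE 0.59, edgeR adjusted p = 1.61e-09) and of -0.08 with depletion (SE 0.32, edgeR adjusted p = 0.872). LAIR2 passed the filter only through the 96 h libraries, so that being tested already required it to be higher at 96 h. LILRA3, which encodes a soluble receptor, had 0 counts in every library. LILRA4, the receptor ILT7 of plasmacytoid dendritic cells, had at most 6 counts, LILRB5 at most 9 and the pseudogene LILRP2 at most 10, and none of these was tested.

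Part of the machinery that these receptors signal through rose with them. Of 14 signalling partners tested, 6 were higher and 2 lower in control iMacs than at 0 h, next to 25.4% and 22.9% of all genes tested. FCER1G, the FcRγ chain that activating LILRs need, had 2 and 0 counts at 0 h and 484 and 434 in control. FGR (4 and 4 counts at 0 h, 1726 and 1668 in control), a Src family kinase of the kind that phosphorylates ITIMs and ITAMs, rose as well, as did LYN of the same family (log2 fold change 2.77, SE 0.06, edgeR adjusted p = 4.28e-45). PTPN6, which encodes SHP-1, fell by 1.08 on the log2 scale (SE 0.06, edgeR adjusted p = 2.08e-24).

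With CTCF depletion, 0 of these 14 partners passed both thresholds in edgeR and 0 in DESeq2. Of all genes tested, 5.41% were higher and 7.03% lower in edgeR. At an unadjusted p below 0.05 in edgeR, 6 partners were higher and 3 lower, next to 19.4% and 26.2% of all genes tested. FCER1G had 42.7 and 40.2 CPM in control and 41.5 and 46.7 CPM with depletion, and these libraries overlap. PTPN6 had 208.5 and 194.3 CPM at 0 h, 90.7 and 99.6 CPM in control and 138.8 and 137.9 CPM with depletion, so that the depleted libraries lay between the other 2 groups. Its log2 fold change with depletion was 0.54 (SE 0.06, edgeR adjusted p = 4.08e-11), below the fold threshold.

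Transcripts for known ligands changed too. Of 15 ligand genes tested of 20 listed, 12 were higher and 2 lower in control iMacs than at 0 h. Of all genes tested, 25.4% were higher and 22.9% lower. S100A9, whose protein binds LILRB1, had 0 and 0 counts at 0 h and 36547 and 32985 in control, and FN1, the fibronectin gene and a ligand source for LILRB4, had 100 and 106 counts at 0 h and 82801 and 84034 in control. Genes for MHC class I ligands of LILRB1 and LILRB2, named after their values had been seen, were well expressed at 0 h and rose, with log2 fold changes of 1.99 for HLA-B, 1.62 for HLA-C, 1.69 for HLA-E and 1.02 for B2M.

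With depletion, 3 ligand genes were higher and 3 lower, next to 5.41% and 7.03% of all genes tested. APOE, which encodes a ligand of LILRB4, had 4 and 15 counts in control and 50 and 43 with depletion (log2 fold change 2.31, SE 0.40, edgeR adjusted p = 2.98e-06), and FN1 rose further (0.69, SE 0.06, edgeR adjusted p = 7.22e-16). APOE passed the filter only through the depleted libraries, so that being tested already favoured its rise. ANGPTL2, a ligand gene of LILRB2, fell by 1.30 on the log2 scale (SE 0.26, edgeR adjusted p = 4.90e-05), from 76 and 53 to 29 and 22 counts. COLEC12, whose product binds LAIR1, had 201.7 and 208.2 CPM in control and 104.3 and 106.2 CPM with depletion (log2 fold change -0.96, SE 0.06, edgeR adjusted p = 1.79e-20).

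Around the LILR genes, the leukocyte receptor complex holds genes of other kinds. Of 29 neighbours listed, 17 were tested. Of these, 4 were higher and 5 lower in control iMacs than at 0 h, next to 25.4% and 22.9% of all genes tested. With depletion, 1 was higher and 0 lower, next to 5.41% and 7.03% of all genes tested. The immunoglobulin-domain receptor genes OSCAR and VSTM1 rose in conversion. So did MBOAT7 and LENG8, which are not among these receptor genes, with log2 fold changes of 1.91 and 0.91. OSCAR, a collagen receptor that pairs with FcRγ like the LILRAs, had 0.619 and 0.675 CPM at 0 h, 30.1 and 29.6 CPM in control and 62.3 and 68.0 CPM with depletion. It was the 1 neighbour past both thresholds with depletion (log2 fold change 1.12, SE 0.08, edgeR adjusted p = 4.00e-17). VSTM1, an inhibitory receptor gene, had 0 counts at 0 h, 40 and 28 in control and 68 and 49 with depletion. TTYH1 and CDC42EP5, which lie between the strand groups and encode no immune receptors, had 18 to 24 counts per library at 0 h and fell in conversion, with log2 fold changes of -3.36 and -3.26.

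**Figure D4:**
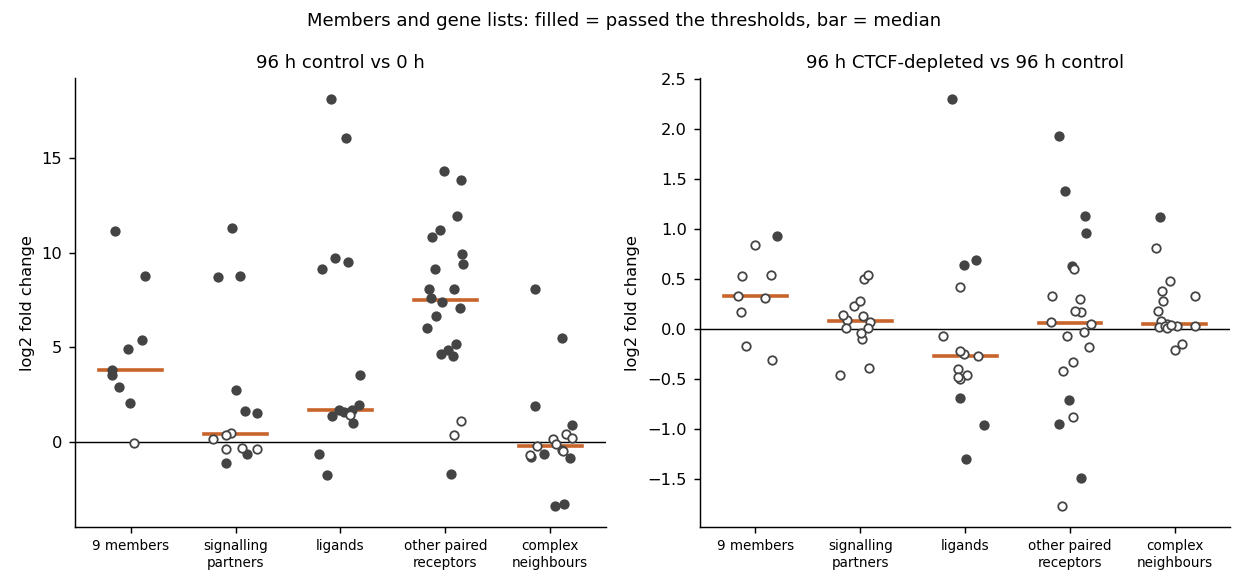
Log2 fold changes of the members and of 4 gene lists, in 96 h control against 0 h (left) and in 96 h CTCF-depleted against 96 h control (right). Each point is a gene, filled where it passed both thresholds, and the bar is the median. On the left, 8 of 9 members are filled and above 0, and on the right 1 of 9. Fitted values for genes with no or few counts at 0 h depend on the prior count.

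Genes with the most similar pattern were sought for the member with the highest level per length in control, LAIR1, and for the activating member with the highest level per length in control, LILRA2, by the Euclidean distance of log2 CPM centred over the 6 libraries. Nearest to LAIR1 were ICAM4 (0.118), S100A11 (0.162) and LINC00936 (0.165). Nearest to LILRA2 were ASAP1-IT1 (0.179), GUCY1A3 (0.188) and CTSA (0.243). As an example, S100A11 had 14.5 and 11.9 CPM at 0 h, 187.0 and 176.1 CPM in control and 174.4 and 172.3 CPM with depletion, and CTSA had log2 fold changes of 2.04 in conversion and 0.51 with depletion. This distance describes likeness over 6 libraries that fall into 3 groups and says nothing of shared control.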

How the data were processed

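RNA-seq was performed on ribosomal RNA-depleted total RNA of 6 libraries, 2 biological replicates per condition. The counts were made by the authors and deposited without normalization: per the methods and the submitters' notes, reads were processed with nf-core/rnaseq, aligned to hg38 with STAR 2.6.1d and counted per gene with featureCounts 2.0.6. Annotation release, strand setting and treatment of multi-mapped reads are not given in the sources used here. Overlapping genes could therefore add reads: an antisense RNA covers 6.45% of the LILRB1 exon bases, and a lncRNA on the same strand covers 15.8% of those of LILRA2. A pseudogene on the same strand covers 13.0% of the exon bases of LILRB4, and a lncRNA on the same strand 4.76% of those of LILRA5.

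Tests were run on the counts with edgeR 4.0.16 in R 4.3.3 (filterByExpr, TMM, quasi-likelihood test with condition as the only term over all 6 libraries, Benjamini-Hochberg adjustment), with the study's thresholds of 0.01 for the adjusted p and 0.6 for the absolute log2 fold change. The fit was tested on simulated data. DESeq2 1.42.0 and other settings served as alternatives. Total counts of 9273470 to 12718780 limit precision for genes of few counts. Listed genes with hardly any counts at 0 h, such as FCER1G, FGR, S100A9, CLEC12A and CD300E, passed the filter only through the 96 h libraries. TTYH1 and CDC42EP5 passed it only through the 0 h libraries. Against 0 h groups of 0 counts, folds are bounds at a floor of 3 counts per group, and ratios of 1 to 3 counts have exact 95% intervals. Symbols were matched by name to GENCODE release 44 for 72.9% of 30017 symbols and for all 9 members. Promoter windows were those of RefSeq. Summaries used Python 3.11.15 with pandas 2.3.3, numpy 2.4.6, scipy 1.17.1 and matplotlib 3.10.9.

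The members, lists and tests were chosen with earlier results of these data known. All members were named, and of each other list up to 4 called genes with the largest absolute log2 fold change per comparison, except that some genes this rule covers are not reported here. Replicate numbers were not treated as pairs. A symbol for VSIR or LILRP1 was not analysed here, nor were other assays of the study.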

Additional observations from a re-analysis of the deposited data

How the results depend on the processing

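With 2 libraries per group the spread was borrowed across genes, and no test of outlying libraries could be made. Of the alternatives for single members' log2 fold changes, 376 kept direction and side of the thresholds, 8 newly passed them, 8 passed only the looser rule of an adjusted p below 0.05, and 1 reversed: LILRB3 with depletion, at 0.0335 when summed with LILRA6 (the summing itself is the cause). LILRA6 kept its direction but went from 0.308 to this same value. With at least 10 counts in every library, 4 in place of 8 members were higher in both comparisons with 0 h, since the other members were no longer tested. With depletion this setting left 0 higher, as LILRA5 was not tested. Without a filter, or with only the 4 libraries compared, 2 were higher (LILRA5 and LILRA1). At an adjusted p below 0.05 with no fold threshold, 6 were higher and 2 lower, as were 16.1% and 22.6% of all genes tested. Leaving out 1 library at a time gave 1 to 3 higher with depletion; the lone library of a group is then assumed to vary like the others. The replicate block gave 8, 1 and 8 members higher in control against 0 h, depletion against control and depletion against 0 h, as without it. Correlations of replicate differences over all genes tested were -0.0165, 0.00635 and -0.0399. These gave no sign of pairs but cannot exclude them, as counting noise in genes of few counts can hide them. Genes of few counts at 0 h (LILRA5, LILRB3, LILRA1) have fold changes that depend on the prior count.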

Other observations

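Other paired receptors of myeloid cells outside the LILR cluster were compared in the same way. Of 22 tested of 25 listed, 19 were higher and 1 lower in control iMacs than at 0 h. The shares of all genes tested were 25.4% and 22.9%. CLEC12A, an inhibitory C-type lectin, had 0 counts in both 0 h libraries and 2599 and 2452 in control, and CD300E, an activating receptor of monocytes, had 0 counts at 0 h and 463 and 491 in control. SIGLEC10, an inhibitory sialic acid receptor also known from B cells, was the 1 that fell, by 1.66 on the log2 scale (SE 0.16, edgeR adjusted p = 6.52e-14).

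With CTCF depletion, 5 of these receptors were higher and 3 lower, next to 5.41% and 7.03% of all genes tested. SIGLEC10 had 17.0 and 18.2 CPM at 0 h, 5.91 and 5.19 CPM in control and 14.4 and 14.6 CPM with depletion (log2 fold change against control 1.38, SE 0.17, edgeR adjusted p = 5.84e-10). CD300LF, an inhibitory receptor, had 16.0 and 19.0 CPM in control and 38.9 and 38.0 CPM with depletion (1.14, SE 0.12, edgeR adjusted p = 4.65e-12). CLEC4A, an inhibitory lectin, had 20 and 14 counts in control and 55 and 73 with depletion (1.94, SE 0.31, edgeR adjusted p = 9.25e-07). CD300E went the other way, with 40.9 and 45.5 CPM in control and 14.0 and 16.8 CPM with depletion (-1.49, SE 0.11, edgeR adjusted p = 2.12e-16). The other receptors that rose with depletion, named after their values had been seen, were CD300C (0.96) and SIRPB1 (0.64). Those that fell besides CD300E, also named after their values had been seen, were TREM1 (-0.95) and CLEC7A (-0.71).

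Erythroid markers were at 0 in every library. Of the neutrophil list, MPO, ELANE, AZU1 and CSF3R, which immature myeloid cells also express, rose in conversion, with a summed level of 0.722 to 0.900 CPM at 0 h, 93.4 to 96.7 CPM in control and 72.2 to 78.1 CPM with depletion. The T cell and NK cell gene CD2 had 0 counts at 0 h, 40 and 38 in control and 54 and 55 with depletion. The NK cell marker NCAM1 had 359 and 446 counts at 0 h and 1042 and 963 in control. The rest of the NK cell list (KLRD1, KLRF1, NCR1 and GNLY) had at most 10 counts in any library and was not tested.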
